A study of Mus musculus with 12 samples.

Results

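The proteasome genes were studied as 1 family: every gene on the array whose symbol begins with Psma, Psmb, Psmc, Psmd, Psme or Psmg followed by a number, each read from 1 probe set (a set of probes that together measure 1 gene). There were 49 such genes among 19938 genes with a probe set of their own. The spelling takes in 41 genes counted here as the constitutive proteasome, with its activators, its assembly factors and the testis alpha subunit Psma8. It also takes in the 5 immunoproteasome genes Psmb8, Psmb9, Psmb10, Psme1 and Psme2, which are described apart, and the thymus subunit Psmb11. Psmc3ip and Psme3ip1 are included by spelling only, since they do not encode subunits.

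Hearts of male C57BL/6 mice were measured after an operation that narrowed an outflow vessel, a model of pressure overload, or after a sham operation. The study used the model to look for genes enriched in the right heart. The right ventricle (RV) was taken 1, 3 or 6 weeks after pulmonary artery clipping (PAC), at 13, 15 or 18 weeks of age, and 3 weeks after a sham operation at 15 weeks of age. The left ventricle (LV) was taken 3 weeks after transaortic constriction (TAC) or a sham operation, both at 15 weeks of age. Each of the 6 groups held 2 whole-transcript arrays, 12 in all, and the only right ventricular controls were the sham arrays of 3 weeks, so the PAC groups of 1 and 6 weeks differ from their control in age as well. The labels do not say whether the arrays of a group came from separate animals, so p-values measure the spread between arrays, which may be technical, nor is it stated whether 1 sham heart gave both an RV and an LV piece.

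The proteasome degrades proteins that carry ubiquitin chains. Its barrel, the 20S core, is built from an alpha ring that gates the entrance and a beta ring that holds the proteolytic sites. The 19S cap binds the ubiquitin chain, removes it, unfolds the substrate with a ring of ATPases and feeds it into the barrel. Under interferon, 3 catalytic beta subunits are replaced by Psmb8, Psmb9 and Psmb10, and the cap can be exchanged for the PA28 activator made of Psme1 and Psme2, which favours peptides for presentation to T cells. Heart muscle relies on this system to turn over sarcomere proteins.

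Promoter sequence was printed for the 5 genes on which the results below turn: the 3 genes of the 19S cap and its assembly that rose at more than 1 time after PAC, the immunoproteasome gene that fell, and Psmb8 as a classical interferon-responsive subunit. Each line gives the 250 bases before the start site, read 5′ to 3′ on the gene's own strand, from RefSeq on mouse build GRCm38.p6. Psmd14 lies at chr2:61711444-61711693 on the plus strand, Psmc6 at chr14:45329574-45329823 on the plus strand and Psmd10 at chrX:140956712-140956961 on the minus strand. Psme1 lies at chr14:55578244-55578493 and Psmb8 at chr17:34197945-34198194, both on the plus strand. Capitals mark matches to 1 of 4 motifs searched on both strands, so that a box on the opposite strand appears as its reverse complement.
Psmd14: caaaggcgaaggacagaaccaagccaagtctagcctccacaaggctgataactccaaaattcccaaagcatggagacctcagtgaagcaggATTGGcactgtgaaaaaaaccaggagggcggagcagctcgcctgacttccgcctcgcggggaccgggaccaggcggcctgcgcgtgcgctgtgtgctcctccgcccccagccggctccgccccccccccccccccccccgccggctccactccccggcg
Psmc6: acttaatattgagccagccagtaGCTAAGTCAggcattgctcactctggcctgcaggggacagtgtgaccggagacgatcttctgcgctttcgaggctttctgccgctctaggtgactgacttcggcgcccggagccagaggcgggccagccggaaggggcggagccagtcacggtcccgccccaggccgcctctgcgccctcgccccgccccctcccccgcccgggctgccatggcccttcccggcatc
Psmd10: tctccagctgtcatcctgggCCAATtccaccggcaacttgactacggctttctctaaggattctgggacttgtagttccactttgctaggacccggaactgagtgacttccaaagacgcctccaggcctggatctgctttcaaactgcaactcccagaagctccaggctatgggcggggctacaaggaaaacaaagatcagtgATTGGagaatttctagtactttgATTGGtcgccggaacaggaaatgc
Psme1: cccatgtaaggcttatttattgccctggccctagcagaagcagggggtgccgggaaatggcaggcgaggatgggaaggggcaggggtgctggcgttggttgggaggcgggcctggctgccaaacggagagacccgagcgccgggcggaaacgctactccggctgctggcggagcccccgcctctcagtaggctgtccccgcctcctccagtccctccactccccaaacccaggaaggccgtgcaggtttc
Psmb8: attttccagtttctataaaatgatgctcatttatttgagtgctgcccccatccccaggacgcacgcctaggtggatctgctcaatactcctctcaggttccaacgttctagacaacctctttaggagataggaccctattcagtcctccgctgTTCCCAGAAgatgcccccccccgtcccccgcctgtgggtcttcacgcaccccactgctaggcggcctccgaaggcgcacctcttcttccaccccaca

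The motifs were the core of the antioxidant response element (TGACNNNGC, bound by Nfe2l1 and Nfe2l2), the CCAAT box (CCAAT, bound by NF-Y), the interferon-stimulated response element (the letters GAAA repeated after a gap of 2 bases) and the gamma-activated site (TTCNNNGAA). Matches of different motifs did not overlap in the windows of the proteasome genes. RefSeq windows of 300 bases, which run from 250 before to 50 after a start, were at hand for 41 of the 49 genes, 45 windows in all. The capitals in Psmd14 are a CCAAT box on the opposite strand beginning 159 bases before the start, those in Psmc6 an antioxidant core on the opposite strand at 227, and those in Psmd10 are 3 CCAAT boxes at 230, 47 and 24. The printed stretch of Psme1 held none of the 4, and an interferon-stimulated element of the letters GAAAGCGAAA lay on the opposite strand from base 10 after its start. Psmb8 held a gamma-activated site at 97 bases before the start.

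Across the family, CCAAT was found in 16 of 45 windows (35.6%) against 37.4% of 32851 windows of all genes, and the antioxidant core in 6 (13.3%) against 12.4%. Psmb5 and Psmb6, which carry proteolytic sites, were among the holders of the antioxidant core, at 47 and 9 bases before the start. The gamma-activated site was found in 3 windows (6.67%) against 8.3%, and the interferon-stimulated element in 5 (11.1%) against 3.44%. Of the 6 immunoproteasome windows 1 held the interferon-stimulated element, that of Psme1. The other holders were the constitutive genes Psmb3, Psmd4, Psmd9 and Psmg4. These shares describe letters in a window and carry no test.

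All values are log2 expression after robust multi-array averaging (RMA), so a step of 1 is a doubling, and changes are differences of log2 means ± the standard error from limma. Values ran from 1.71 to 14.78 over all probe sets, array medians lay between 6.32 and 6.4, and arrays of the same group correlated at 0.992 to 0.997. Heart muscle as the source was checked on 6 cardiomyocyte genes, whose mean level was 13.51 to 13.63 on every array, with no gene below 12.64. The labelled chamber was not checked by these genes. Because every PAC comparison uses the same sham RV arrays, the results at 1, 3 and 6 weeks are not independent of one another.

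**Figure D1:**
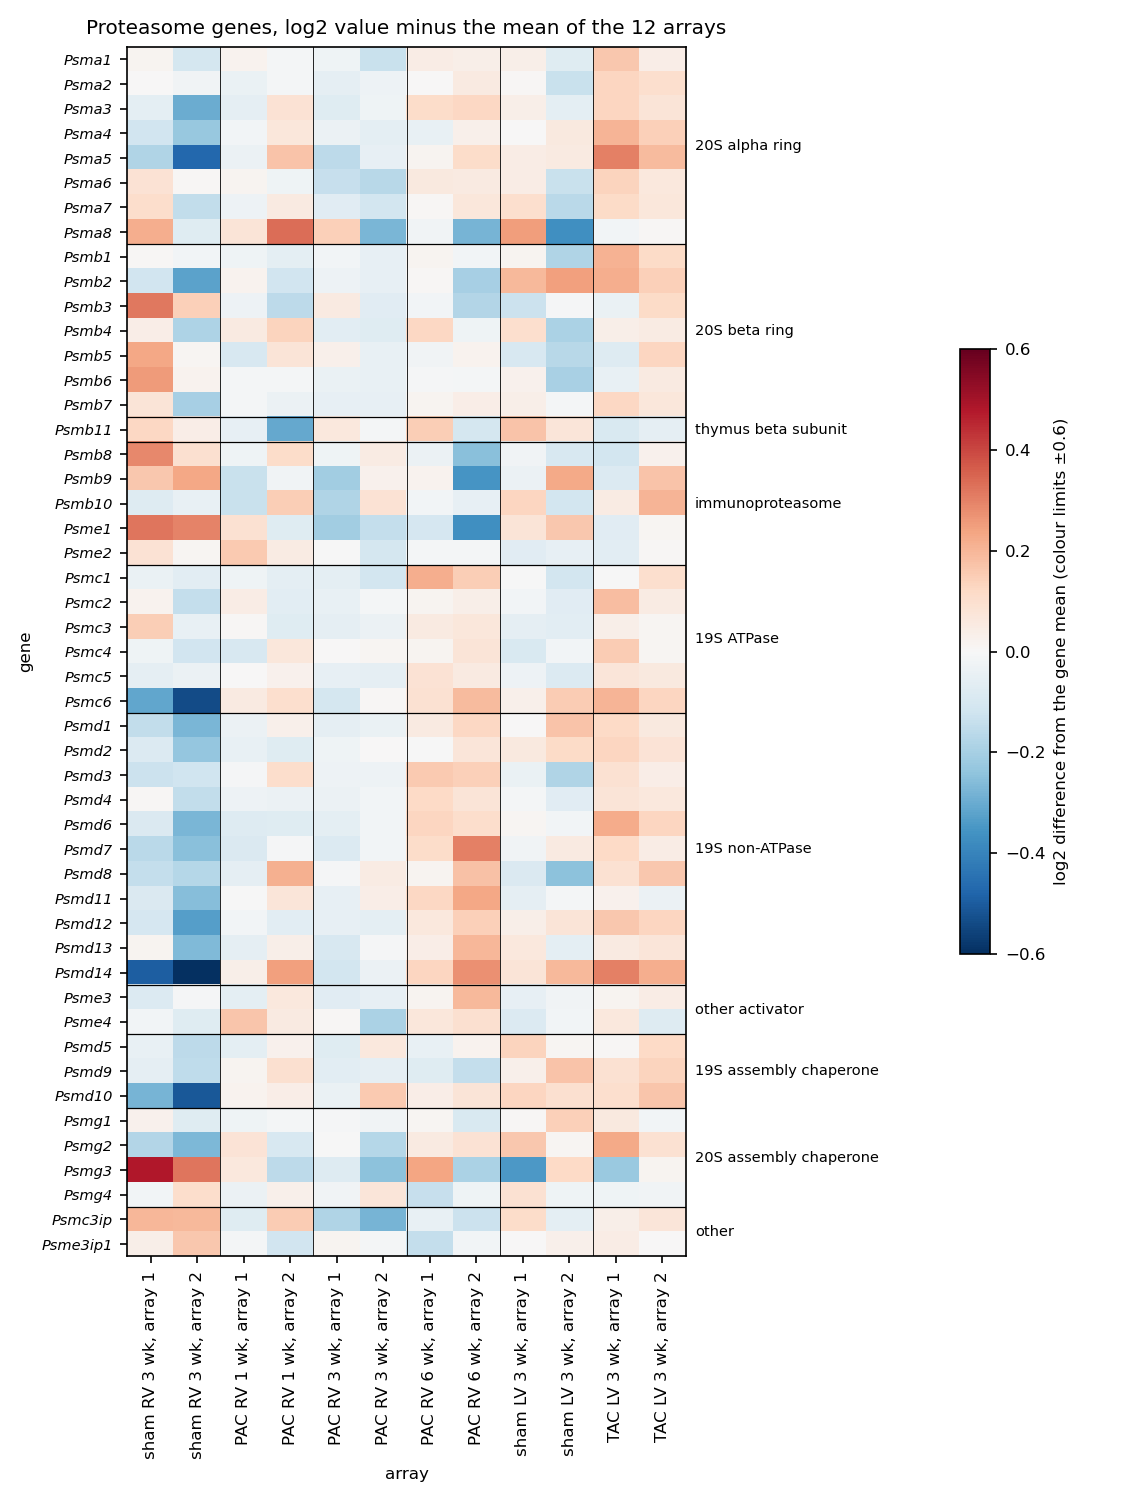
Log2 value of each of the 49 proteasome genes on each of the 12 arrays, minus that gene's mean over the arrays, with genes (vertical) grouped by role and arrays (horizontal) by group. Blue is below and red above the gene mean, with colours capped at 0.6, a limit that Psmd14 passed on sham RV array 2. Most 19S non-ATPase genes are blue on both sham RV arrays, most deeply on array 2.

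The mean level of most family members lay well above 5.65 to 5.79, the range over arrays of the median of probe sets with no gene listed. Psma8, the testis form of an alpha subunit, averaged 5.46 over the 12 arrays, and Psmb11, the beta subunit of thymic epithelium, averaged 5.31. Both thus stood at the level of unannotated probe sets. Psmg3 and Psmg4, which help the alpha ring to assemble, averaged 6.15 and 6.2, below the median gene at 6.74.

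After PAC a few genes of the 19S cap and its assembly rose and the PA28 gene Psme1 fell, while no gene of the beta ring and no catalytic immunoproteasome subunit passed at a single time with these settings. Under other settings Psmb3 of the beta ring and Psmb8 did, as given with each below. At 1 week 4 of 49 genes passed a limma adjusted p of 0.05, all higher: Psmd14, Psmc6, Psmd10 and Psma5. That is 8.16%, below the 18.4% of all genes that passed (9.57% higher and 8.86% lower). At 3 weeks 4 passed, Psmd14 and Psmd10 higher and Psme1 and Psmc3ip lower, which is 8.16% against 5.76% of all genes (3.22% higher and 2.54% lower). At 6 weeks 6 passed, with Psmd14, Psmc6, Psmd10, Psmd7 and Psmd11 higher and Psme1 lower, which is 12.2% against 9.25% (5.52% higher and 3.73% lower). For the mean of the 3 times 11 passed, 7 higher and 4 lower, or 22.4% against 24.8% (12.2% higher and 12.6% lower). With these settings the shares lie near the background or below it, and the changes are described gene by gene. At 6 weeks the share depended on the setting: with a trended and robust variance prior 14 of 49 passed (28.6%, against 11.7% of all genes), and with low genes left out (below the median level) 16 of 44 (36.4%, against 24.4%).

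These counts rested on single arrays, above all on sham RV array 2, and so did the share of all genes that passed. Without that array the calls at 1, 3 and 6 weeks were lost in the same limma fit, and most for the mean of times. Every gene that had passed kept its direction. It could not turn, since in each such gene both sham RV arrays lay on the same side of all PAC arrays. The count was 1 at 1 week without PAC array 2 of that week and 7 without its array 1. At 3 weeks it was 0 without sham RV array 1, PAC array 2 or either TAC array, 1 without PAC array 1 and 2 without either sham LV array, and at 6 weeks 0 without PAC array 2. Scaling the arrays by cyclic loess changed the split of higher and lower calls from 4 and 0 to 3 and 2 at 1 week, and from 5 and 1 to 3 and 2 at 6 weeks, since Psmb3 then passed as lower at both times and Psme1 also at 1 week, while Psma5 at 1 week and Psmd7 and Psmd11 at 6 weeks no longer passed as higher.

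**Figure D2:**
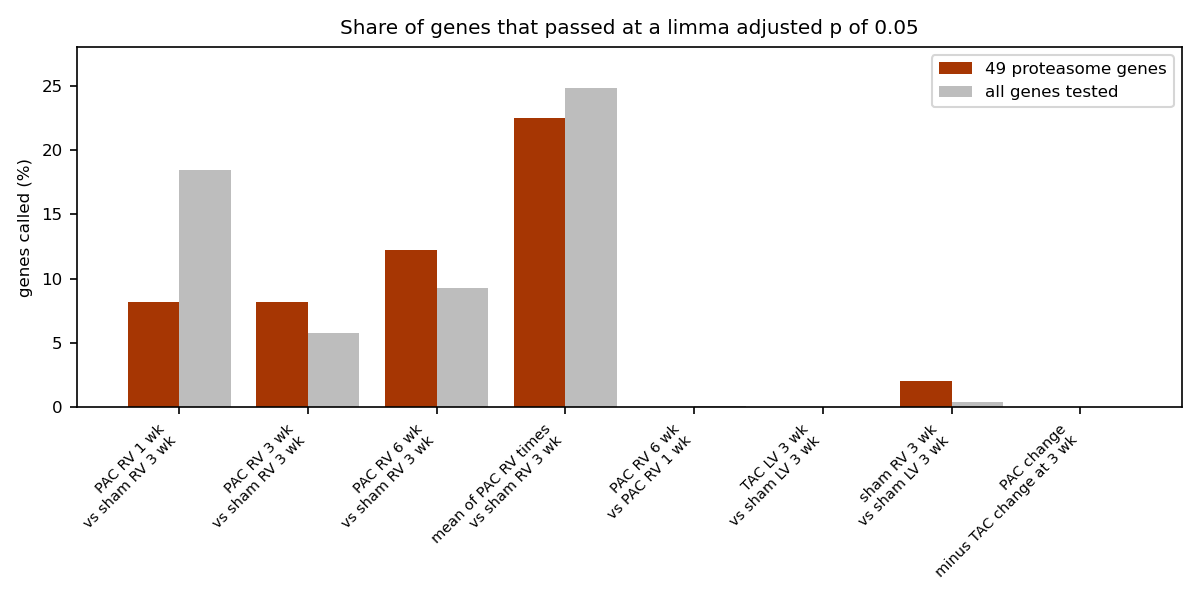
Share of the 49 proteasome genes (red bars) and of all 19938 genes (grey bars) that passed a limma adjusted p of 0.05, in percent (vertical), for each of the 8 comparisons (horizontal). The family lies below all genes at 1 week after PAC (8.16% against 18.4%) and no gene of any kind passed after TAC.

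The lid of the 19S cap, built from non-ATPase subunits, held the gene that moved most. Psmd14 encodes the metalloprotease of the lid that cuts the whole ubiquitin chain off a captured substrate. Its log2 level was 9.5 and 9.16 in sham RV, 10.03 and 10.24 at 1 week after PAC, 9.88 and 9.96 at 3 weeks, and 10.12 and 10.27 at 6 weeks. In the left ventricle it was 10.07 and 10.19 in sham and 10.29 and 10.21 after TAC. Both sham RV arrays lay below all other 10, which themselves spanned only 9.88 to 10.29. The rise over sham RV was 0.80 ± 0.12 at 1 week (1.75-fold, limma adjusted p = 0.00723), 0.59 ± 0.12 at 3 weeks (1.51-fold, limma adjusted p = 0.0316) and 0.87 ± 0.12 at 6 weeks (1.82-fold, limma adjusted p = 0.00758). Without sham RV array 2 these rises were 0.63, 0.42 and 0.69, with limma adjusted p of 0.0508, 0.143 and 0.0542, and only the mean of the times still passed (0.58, limma adjusted p = 0.0447).

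Psmd7 and Psmd11 are further subunits of the lid, Psmd7 being the inactive partner with which Psmd14 pairs. Psmd7 stood at 9.69 and 9.6 in sham RV, 9.76 and 9.84 at 1 week, 9.77 and 9.84 at 3 weeks and 9.96 and 10.15 at 6 weeks, against 9.83 and 9.9 in sham LV and 9.97 and 9.89 after TAC. It passed at 6 weeks, at 0.41 ± 0.09 (limma adjusted p = 0.0263), where its arrays lay above those of the other PAC groups. Psmd11 stood at 10.09 and 9.92 in sham RV, 10.18 and 10.25 at 1 week, 10.13 and 10.22 at 3 weeks and 10.3 and 10.41 at 6 weeks, with 10.12 and 10.16 in sham LV and 10.2 and 10.14 after TAC. Its difference at 6 weeks was 0.35 ± 0.09 (limma adjusted p = 0.0391). For both genes the PAC and sham RV arrays did not overlap, which is no separate support in genes chosen because they passed. Neither passed at 6 weeks under loess scaling, and with 1 array left out Psmd7 kept its call in 9 of 12 cases and Psmd11 in 4 of 12.

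All 11 non-ATPase subunits of the cap had values above 0 at each PAC time, where 42.9%, 42% and 42% of all genes did. Their medians were 0.17, 0.16 and 0.30, against −0.05 for all genes at each time. All 11 lie above the median level, and genes at or above that level had medians of 0.08, 0.07 and 0.07. The number of the 11 cap genes above 0 fell to 10, 8 and 11 under loess scaling, with medians of 0.07, 0.10 and 0.22. The smallest of these differences at 6 weeks was 0.17, and 10 of the 11 had an unadjusted p under 0.05 there, of which 3 passed after adjustment (27.3%). Over all genes these shares were 30.3% and 9.25%. With genes below the median level left out, 4041 of 9969 genes had an unadjusted p under 0.05 in limma, and 24.4% passed. In that setting the non-ATPase cap genes that passed were Psmd1, Psmd3, Psmd6, Psmd7, Psmd11, Psmd12 and Psmd14. Psmd1, the large scaffold at the base of the cap, passed at 6 weeks only with the trended prior or without low genes. With the main settings it passed only for the mean of times, at 0.23 ± 0.07, from 10.63 and 10.51 in sham RV to between 10.73 and 10.91 on the PAC arrays. It kept that call in 3 of 7 other settings and in 3 of 12 cases with 1 array left out.

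**Figure D3:**
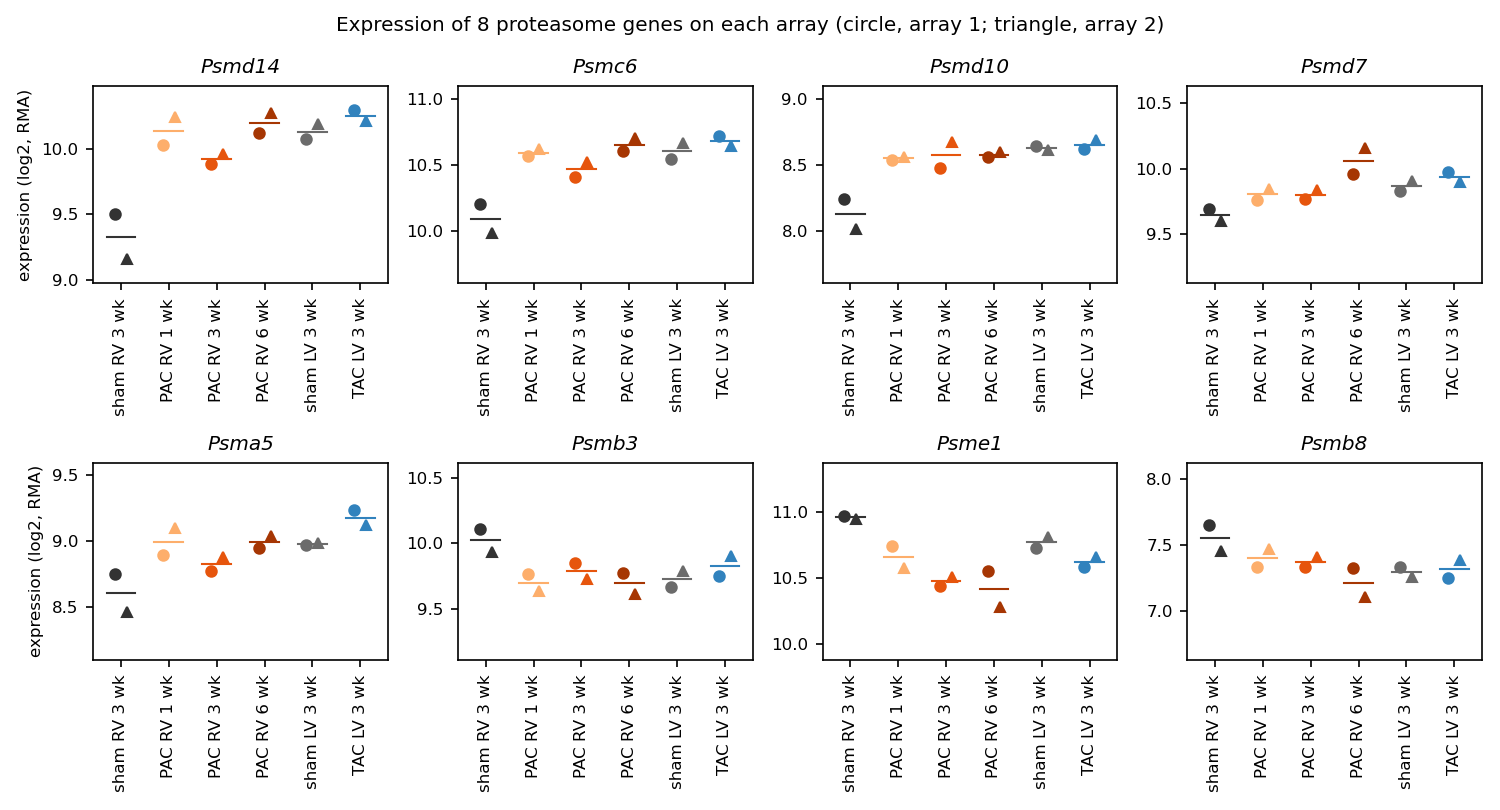
Log2 expression (vertical, each panel spanning 1.5 units) of 8 proteasome genes on every array, by group (horizontal); symbols are arrays and bars are group means of 2 arrays. In Psmd14, Psmc6, Psmd10, Psmd7 and Psma5 both sham RV arrays lie below all others, in Psmb3 and Psme1 above all others, and in Psmb8 sham RV array 2 overlaps PAC arrays.

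Among the 6 ATPases of the cap, Psmc6 alone passed at a single PAC time, although Psmc1 passed at 6 weeks with the trended prior or without low genes. The ATPases form the motor ring that unfolds substrates, and Psmc6 is 1 of its subunits. Its level was 10.2 and 9.98 in sham RV, 10.57 and 10.62 at 1 week, 10.41 and 10.52 at 3 weeks, 10.6 and 10.7 at 6 weeks, 10.55 and 10.67 in sham LV and 10.72 and 10.64 after TAC. As for Psmd14, both sham RV arrays lay below the other 10. It rose by 0.50 ± 0.10 at 1 week (1.42-fold, limma adjusted p = 0.0141) and by 0.56 ± 0.10 at 6 weeks (1.48-fold, limma adjusted p = 0.0145). At 3 weeks it stood 0.38 ± 0.10 higher and just missed (limma adjusted p = 0.0514).

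The other 5 ATPases, Psmc1 to Psmc5, lay between −0.09 and 0.06 at 1 week. The median of all 6 was 0.05 at 1 week, 0.01 at 3 weeks and 0.12 at 6 weeks, and turned to −0.04, −0.07 and 0.02 under loess scaling, so no direction is given for the ring.

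The 19S assembly chaperones hold the ATPases in order while the cap forms and leave before it is complete. Psmd10, known as gankyrin, stood at 8.24 and 8.01 in sham RV, 8.54 and 8.56 at 1 week, 8.48 and 8.68 at 3 weeks, 8.56 and 8.6 at 6 weeks, 8.65 and 8.62 in sham LV and 8.62 and 8.69 after TAC. It passed at every PAC time, with rises of 0.42 ± 0.10, 0.45 ± 0.10 and 0.45 ± 0.10 (limma adjusted p = 0.0213, 0.0336 and 0.0252). Under loess scaling it passed at 1 and 6 weeks and no longer at 3 weeks. Its sham RV arrays were again the lowest of the 12. Psmd5 and Psmd9, the other 2 of this kind, lay between −0.01 and 0.16 and did not pass.

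Among the 20S assembly chaperones Psmg1 to Psmg4 none passed at a single time with these settings. In limma 1 of 4 had an unadjusted p under 0.05 at each of 1, 3 and 6 weeks, against 37.9%, 29.7% and 30.3% of all genes. Psmg2 passed at 6 weeks without low genes, and Psmg3 at 3 weeks with only the arrays compared. Psmg3, which pairs with Psmg4 to help the alpha ring form, passed for the mean of times, at −0.46 ± 0.14 (limma adjusted p = 0.0407). Its arrays stood at 6.63 and 6.48 in sham RV and between 5.91 and 6.39 after PAC, below the level of the median gene.

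In the alpha ring of the core, Psma5 passed at 1 week and for the mean of times (0.34 ± 0.09, limma adjusted p = 0.0271). With the trended prior or without low genes, Psma3 and Psma5 also passed at 6 weeks. Psma5 stood at 8.75 and 8.46 in sham RV, 8.89 and 9.1 at 1 week, 8.77 and 8.88 at 3 weeks, 8.95 and 9.04 at 6 weeks, 8.97 and 8.98 in sham LV and 9.23 and 9.12 after TAC. The difference at 1 week was 0.39 ± 0.11 (1.31-fold, limma adjusted p = 0.0394), and it was 0.25 without sham RV array 2 (limma adjusted p = 0.213). The median of the 8 alpha genes was 0.09, −0.03 and 0.07 at the 3 times, and 0.04, −0.03 and −0.02 under loess scaling.

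The beta ring, which holds the proteolytic sites, had medians of −0.04, −0.03 and 0.01 over its 7 genes at the 3 times and no gene past the threshold at a single time. In limma 1 of 7 had an unadjusted p under 0.05 at each time, against 37.9%, 29.7% and 30.3% of all genes. Its medians were −0.15, −0.12 and −0.10 under loess scaling. The catalytic subunit Psmb5, of chymotrypsin-like activity, stood at 9.34 and 9.12 in sham RV, 9.02 and 9.19 at 1 week, 9.14 and 9.07 at 3 weeks, 9.09 and 9.13 at 6 weeks, 9.02 and 8.95 in sham LV and 9.03 and 9.24 after TAC. The sham RV arrays overlapped those of every PAC group.

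Psmb6, of caspase-like activity, stood at 10.68 and 10.45 in sham RV, 10.41 and 10.41 at 1 week, 10.39 and 10.38 at 3 weeks, 10.42 and 10.41 at 6 weeks, 10.45 and 10.23 in sham LV and 10.38 and 10.48 after TAC. Psmb7, of trypsin-like activity, stood at 11.09 and 10.81 in sham RV, 11 and 10.98 at 1 week, 10.96 and 10.96 at 3 weeks, 11.03 and 11.05 at 6 weeks, 11.05 and 11 in sham LV and 11.14 and 11.08 after TAC. The sham RV arrays of Psmb6 lay above all PAC arrays and those of Psmb7 overlapped them. The largest difference of these 3 catalytic genes from sham RV was −0.18 ± 0.10, for Psmb6 at 3 weeks, and none passed. The exception in the ring was the structural subunit Psmb3, at 10.11 and 9.94 in sham RV against 9.62 to 9.85 on the 6 PAC arrays, which did not overlap. It passed for the mean of times, at −0.30 ± 0.09 (limma adjusted p = 0.033). Psmb3 also passed at 1 and at 6 weeks under loess scaling, without low genes and with the trended prior.

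**Figure D4:**
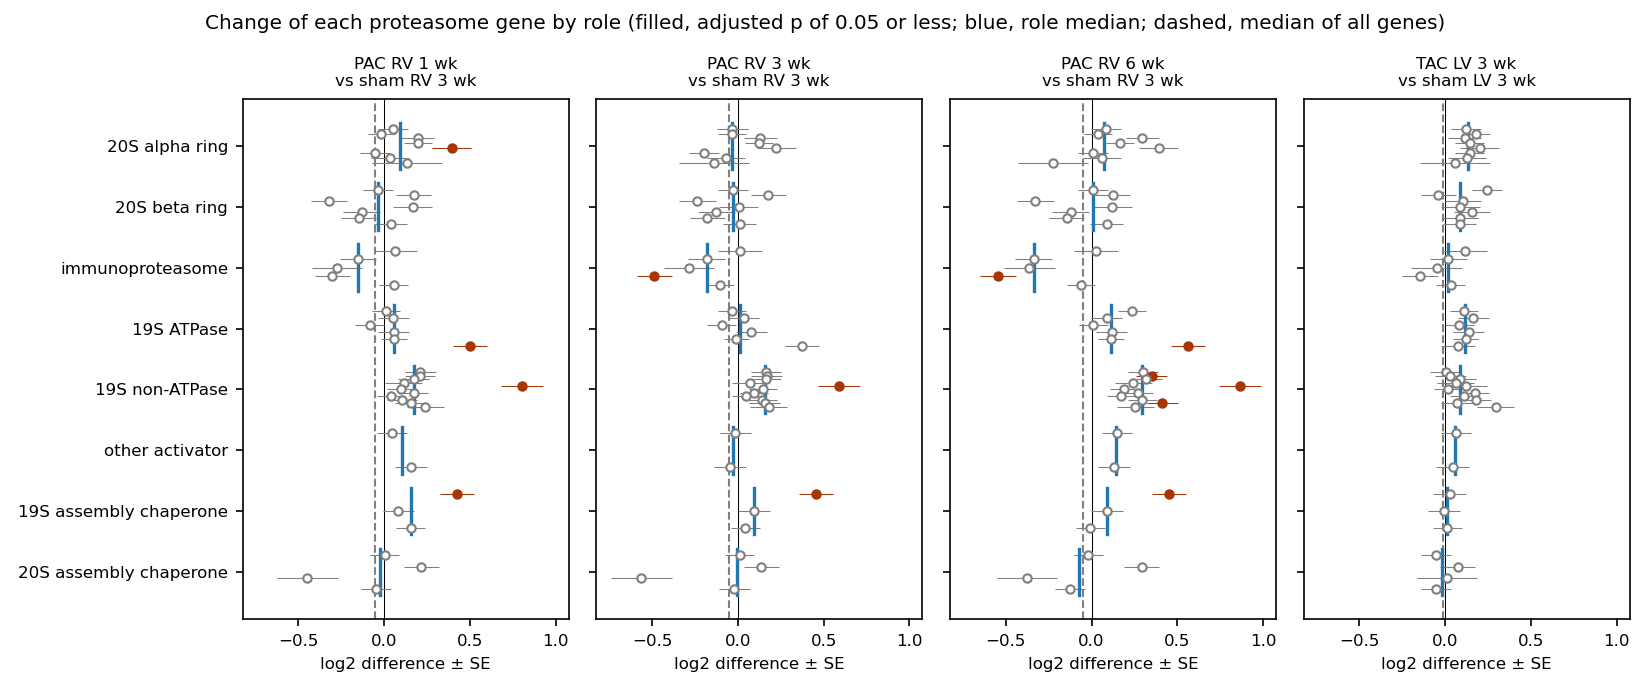
Log2 difference from sham (horizontal) with its limma standard error for each constitutive and immunoproteasome gene, by role (vertical), for PAC at 1, 3 and 6 weeks and for TAC; filled symbols passed an adjusted p of 0.05, blue bars are role medians and the dashed line is the median of all genes. The 11 non-ATPase genes of the cap lie above 0 in all 4 panels (10 and 8 of them at 1 and 3 weeks under loess scaling), and no symbol is filled after TAC.

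Of the immunoproteasome genes only Psme1 passed, and it was lower after PAC. Psme1 encodes the alpha subunit of the PA28 activator. It stood at 10.97 and 10.95 in sham RV, 10.74 and 10.58 at 1 week, 10.44 and 10.51 at 3 weeks, 10.55 and 10.28 at 6 weeks, 10.73 and 10.81 in sham LV and 10.58 and 10.66 after TAC. Both sham RV arrays lay above the other 10. Psme1 fell by 0.49 at 3 weeks (SE 0.10, 1.4-fold, limma adjusted p = 0.0333) and by 0.55 at 6 weeks (SE 0.10, 1.46-fold, limma adjusted p = 0.0171), and lay at −0.30 ± 0.10 at 1 week without passing. Leaving out a sham RV array left the size of the fall at 0.47 or more at 3 weeks and 0.53 or more at 6 weeks, but limma adjusted p then ranged from 0.0622 to 0.127.

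Psme2, the beta subunit with which Psme1 forms the PA28 ring, stood at 8.95 and 8.87 in sham RV, 9.02 and 8.91 at 1 week, 8.86 and 8.76 at 3 weeks, 8.85 and 8.85 at 6 weeks, 8.79 and 8.81 in sham LV and 8.8 and 8.87 after TAC. Its differences after PAC were 0.05, −0.10 and −0.06, each ± 0.08, and none passed.

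The 3 inducible catalytic subunits did not pass in any comparison, with the exceptions that Psmb8 passed at 6 weeks when genes below the median level were left out, and Psmb8 and Psmb9 for the mean of times without PAC array 1 of 6 weeks. Psmb8, which takes the place of Psmb5, stood at 7.65 and 7.45 in sham RV, 7.33 and 7.47 at 1 week, 7.33 and 7.41 at 3 weeks, 7.32 and 7.1 at 6 weeks, 7.34 and 7.26 in sham LV and 7.25 and 7.39 after TAC. Psmb9, which takes the place of Psmb6, stood at 8.35 and 8.42 in sham RV, 8.06 and 8.17 at 1 week, 7.98 and 8.22 at 3 weeks, 8.21 and 7.84 at 6 weeks, 8.15 and 8.42 in sham LV and 8.11 and 8.36 after TAC. For both, sham RV lay above PAC at 3 and 6 weeks without overlap, and for Psmb9 at 1 week as well.

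At 6 weeks the difference was −0.34 ± 0.11 for Psmb8 and −0.36 ± 0.15 for Psmb9, with unadjusted p of 0.00978 and 0.0319 that did not pass adjustment. Psmb10, which takes the place of Psmb7, stood at 8.52 and 8.55 in sham RV, 8.46 and 8.74 at 1 week, 8.41 and 8.68 at 3 weeks, 8.57 and 8.54 at 6 weeks, 8.72 and 8.48 in sham LV and 8.64 and 8.8 after TAC. Its arrays overlapped between sham RV and every PAC group. The median of the 5 genes was −0.15, −0.18 and −0.34 at 1, 3 and 6 weeks and stayed below 0 under loess scaling (−0.18, −0.20 and −0.35).

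The other activators showed no difference that passed. Psme3, the nuclear activator PA28 gamma, stood at 9.44 and 9.52 in sham RV, 9.47 and 9.59 at 1 week, 9.46 and 9.48 at 3 weeks, 9.54 and 9.72 at 6 weeks, 9.48 and 9.51 in sham LV and 9.54 and 9.57 after TAC. Psme4, known as PA200, stood at 11.44 and 11.38 in sham RV, 11.62 and 11.52 at 1 week, 11.46 and 11.27 at 3 weeks, 11.53 and 11.56 at 6 weeks, 11.38 and 11.44 in sham LV and 11.52 and 11.38 after TAC. The larger of the 2 differences from sham RV was 0.16 ± 0.09, for Psme4 at 1 week.

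Psmc3ip, which acts in meiotic recombination and binds an ATPase subunit, stood at 6.61 and 6.61 in sham RV, 6.34 and 6.56 at 1 week, 6.23 and 6.13 at 3 weeks, 6.37 and 6.28 at 6 weeks, 6.52 and 6.35 in sham LV and 6.44 and 6.49 after TAC. It fell by 0.43 at 3 weeks (SE 0.10, limma adjusted p = 0.0384), a call that was lost under loess scaling. Its level is below that of the median gene.

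The course over time was compared directly between PAC at 6 weeks and at 1 week, where 0 of 49 genes passed the limma threshold, against 0.0953% of all genes, and 4 had an unadjusted p under 0.05 (8.16%, against 9.75% of all genes). Those with the smallest p were Psmd7 at 0.26 ± 0.09, the ATPase Psmc1 at 0.22 ± 0.08 and Psme1 at −0.24 ± 0.10 (limma adjusted p = 0.388, 0.396 and 0.485). Psmc1 stood at 9.93 and 9.9 at 1 week and 10.18 and 10.11 at 6 weeks, which did not overlap. It was picked by its small p here, so this adds no support. All 5 immunoproteasome genes had values below 0 in this comparison and all 11 non-ATPase cap genes above 0, with medians of −0.11 and 0.13, where 47.7% of all genes lay below 0 and 52.3% above.

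In the left ventricle TAC gave 0 of 49 at the limma threshold, as it gave 0% of all genes, with 3 of 49 and 963 of 19938 at an unadjusted p under 0.05. The 3 were the core subunit Psmb1 at 0.24 ± 0.09, the lid subunit Psmd8 at 0.29 ± 0.11 and the core subunit Psma2 at 0.18 ± 0.08, all with a limma adjusted p of 0.985. Psmb1 stood at 9.15 and 8.95 in sham LV and 9.34 and 9.25 after TAC. Psmd8 stood at 9.75 and 9.58 in sham LV against 9.93 and 10 after TAC, and Psma2 at 9.26 and 9.12 against 9.38 and 9.35. In all 3 genes both TAC arrays lay above both sham LV arrays. The genes were picked by their small p in this same comparison, so this adds no support. Values above 0 were found in 37 of the 41 constitutive genes after TAC, and likewise in 37 under loess scaling (median 0.09). Their median without that scaling was 0.09, against −0.02 for all genes and 0.001 for genes at or above the median level. Of all genes 44.8% lay above 0.

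The difference between the PAC and TAC changes at 3 weeks was tested as an interaction, and 0 of 49 genes passed (0% of all genes passed as well), with 7 at an unadjusted p under 0.05 (14.3%, against 11.9% of all genes). The smallest p belonged to Psmc3ip at −0.46 ± 0.14, Psmd10 at 0.43 ± 0.14 and the alpha subunit Psma6 at −0.34 ± 0.12 (limma adjusted p = 0.363, 0.366 and 0.375). For Psmd14 the change was 0.59 after PAC and 0.12 after TAC, a difference of 0.47 ± 0.17 that did not pass (limma adjusted p = 0.384). So no proteasome gene was shown to respond differently to PAC than to TAC.

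Between the sham ventricles, Psmd14 was lower in RV than in LV by 0.80 ± 0.12 on the log2 scale (1.74-fold, limma adjusted p = 0.0335). It was the only family member that passed, 2.04% of 49, against 0.411% of all genes in either direction and 0.336% in this one. Psmc6 at −0.52 ± 0.10 and Psmd10 at −0.51 ± 0.10 narrowly missed (limma adjusted p = 0.0504 and 0.0509). The sham RV arrays in this comparison are the same as in the PAC comparisons. Without sham RV array 2 the Psmd14 difference was −0.63 (limma adjusted p = 0.216), and the call was also lost when either array of sham LV, of TAC or of PAC at 3 weeks was left out.

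Sham RV was at the edge of the 12 arrays for part of the family. Both of its arrays lay below the other 10 in 12 of 49 genes (24.5%, against 12.4% of all genes), and 7 of these 12 were non-ATPase cap subunits: Psmd1, Psmd2, Psmd6, Psmd7, Psmd11, Psmd12 and Psmd14. The other 5 were Psmc6, Psmd10, Psma4, Psma5 and Psmg2. Both lay above the other 10 in 4 genes, Psmb3, Psmg3, Psme1 and Psmc3ip (8.16%, against 14.3%). Sham RV array 2 was the lowest of the 12 in 21 of 49 genes (42.9%, against 18.1% of all genes) and array 1 in 1. The median deviation of the 41 constitutive genes from their own means was −0.04 and −0.15 on the sham RV arrays and lay between −0.05 and 0.10 on the other arrays. The shares of all genes given here include genes of every level, while 44 of the 49 family members lie at or above the median level. Genes at or above that level had a median difference of −0.07 between sham RV and sham LV, against 0.02 for all genes. Under loess scaling the constitutive median between the shams was 0.02, with 22 genes above 0 and 19 below. What sets array 2 apart was not tested.

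Among 18 measured partners of the proteasome, 2 rose at 1 week and 2 at 6 weeks, Uchl5 and Usp14 each time. That is 11.1%, against 9.57% of all genes at 1 week and 5.52% at 6 weeks. Both are deubiquitinases that bind the cap. Uchl5 stood at 8.35 and 8.03 in sham RV, 8.58 and 8.62 at 1 week, 8.36 and 8.48 at 3 weeks, 8.76 and 8.84 at 6 weeks, 8.75 and 8.75 in sham LV and 8.67 and 8.69 after TAC. It rose by 0.41 ± 0.11 at 1 week and 0.61 ± 0.11 at 6 weeks (limma adjusted p = 0.0294 and 0.0145). Its sham RV arrays were the lowest of the 12, as for Psmd14.

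Usp14, which trims chains at the cap, stood at 9.18 and 9.26 in sham RV, 9.48 and 9.5 at 1 week, 9.54 and 9.45 at 3 weeks, 9.69 and 9.59 at 6 weeks, 9.5 and 9.58 in sham LV and 9.6 and 9.65 after TAC. It rose by 0.27 ± 0.08 at 1 week and 0.42 ± 0.08 at 6 weeks (limma adjusted p = 0.0473 and 0.0183). For the mean of times Zfand2a, a stress-induced partner of the cap, also rose, by 0.29 ± 0.08. At 3 weeks 0 of 18 passed in limma, and 4 had an unadjusted p under 0.05, against 29.7% of all genes. The medians of the 18 were 0.15, 0.11 and 0.18 at the 3 times, and 3 of the 21 listed partners were not used here.

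Of 11 measured regulators of proteasome genes 1 rose at 1 week (9.09%, against 9.57% of all genes) and 2 at 6 weeks (18.2%, against 5.52%). Stat3 rose at 1 week (0.59 ± 0.13, limma adjusted p = 0.0185) and at 6 weeks (0.61 ± 0.13, limma adjusted p = 0.0238). Mafk, a small Maf partner of the factors that bind the antioxidant element, rose at 6 weeks (0.80 ± 0.16, limma adjusted p = 0.021). Those factors themselves did not pass: Nfe2l1, which drives proteasome genes when the proteasome is inhibited, lay at −0.09, 0.04 and 0.17, and Nfe2l2 at 0.18, 0.19 and 0.29. Nfyb, a subunit of NF-Y, passed for the mean of times at 0.29 ± 0.09. Uba6, a ubiquitin-activating enzyme and the only 1 of 6 listed ubiquitin and activating-enzyme genes that was used here, rose by 0.34 ± 0.10 at 1 week (limma adjusted p = 0.0367).

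Of 12 measured genes of class I presentation and interferon signalling, the set to which the immunoproteasome belongs, 2 rose and 1 fell at 1 week. These are 16.7% and 8.33%, against 9.57% of all genes higher and 8.86% lower. Ifngr1, a chain of the interferon gamma receptor, rose by 0.40 ± 0.10, 0.61 ± 0.10 and 0.47 ± 0.10 at the 3 times (limma adjusted p = 0.0253, 0.0202 and 0.0235). Nlrc5, the activator of class I genes, fell by 0.67 at 1 week (SE 0.17, limma adjusted p = 0.0271), from 9.22 on both sham RV arrays to 8.73 and 8.38. The peptide trimmer Erap1 rose by 0.25 ± 0.08 at 1 week (limma adjusted p = 0.0488). Tap1, the peptide transporter subunit encoded beside Psmb9, stood at 7.35 and 7.33 in sham RV and between 7.11 and 7.64 after PAC, and did not pass.

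Markers of other cells moved in the same arrays. Of 14 leukocyte genes 5 macrophage and myeloid markers rose at 1 week (Cd68, Lyz2, Csf1r, Adgre1 and Itgam) and 4 lymphocyte markers fell (Cd3e, Cd3g, Cd8a and Nkg7), which is 35.7% and 28.6%, against 9.57% of all genes higher and 8.86% lower. At 6 weeks Cd3e and Nkg7 were still lower, by 0.47 each. The lowest value of any of the 14 on an array was 3.59. Their mean was 6.99 to 7.02 in sham RV, 7.09 to 7.42 at 1 week, 7.04 to 7.15 at 3 weeks, 6.91 to 6.93 at 6 weeks, 6.92 to 7.07 in sham LV and 6.88 to 7.05 after TAC. Leukocytes are rich in immunoproteasome, and the part of these shifts in the values of Psme1, Psmb8 and Psmb9 was not tested.

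Fibroblast, endothelial and proliferation genes also rose at 1 week, in 4 of 6, 2 of 5 and 5 of 5 cases, against 9.57% of all genes. At 3 weeks, when Psme1 first passed, 4 of 6, 4 of 5 and 2 of 5 rose, against 3.22% of all genes, and at 6 weeks 1 of 6, 0 of 5 and 0 of 5, against 5.52%. At an unadjusted p under 0.05 in limma there were 4 of 6 fibroblast, 3 of 5 endothelial and 2 of 5 proliferation genes at 6 weeks. Of all genes 30.3% had such a p. The part of these cells in the family's changes was not tested. The mean of 4 atrial genes was 5.86 to 6.67 in sham RV, 8.88 to 10.23 at 1 week, 7.66 to 9.3 at 3 weeks, 7.4 to 7.83 at 6 weeks, 7.12 to 8.53 in sham LV and 7.29 to 7.55 after TAC. Sham RV was thus the lowest group for atrial genes as it was for Psmd14, Psmc6 and Psmd10, and the part of atrial tissue in the cap genes was not tested. In bulk tissue, fewer cells of a type and less RNA per cell cannot be told apart.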

How the data were processed

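Whole-transcript Affymetrix arrays gave log2 expression values, deposited by the authors. Per the submitters' processing notes, RMA and Affymetrix Power Tools were used; for their versions and the build, the sources used here give nothing. Of 35556 probe sets, 21789 were paired with a single gene by the platform annotation. For each of 19938 genes the probe set of highest mean level on the 12 arrays was taken. For the proteasome genes 55 probe sets gave 49 genes; 5 genes had several, and 1 probe set shared by Psme2 and another gene was left out.

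A limma 3.58.1 model in R 4.3.3 with a mean for each of 6 groups was fitted to all arrays and genes, with 6 residual and 4.6 prior degrees of freedom. Two-sided p-values were adjusted by Benjamini-Hochberg over all genes, and a gene passed at 0.05. The median standard error was 0.112 between groups, 0.0917 for the mean of times and 0.159 for the difference between the PAC and TAC changes. With 2 arrays on each side, the smallest exact permutation p is 0.33. The number of arrays limits the precision.

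Values on every array were given for the immunoproteasome genes, the catalytic genes Psmb5, Psmb6 and Psmb7, Psme3 and Psme4, and up to 6 genes that passed in a comparison, or the 3 with the smallest p where none did. Up to 4 genes were named per companion list, those that passed first. Psmc1 and Psmd14 were also described in comparisons where they did not pass. The members, roles and lists were chosen with earlier results of these data known. Replicate numbers were not taken to pair arrays: correlations of their deviations ran from −0.24 to 0.37 over 15 pairs of groups, with 5 above 0.1. Those among the 3 PAC groups were 0.26 to 0.37, so that PAC arrays of the same number deviated together, and those of PAC with sham RV −0.09 to 0.02. The fit was tested on simulated data for PAC at 1 week, in 5 runs. It recovered 40.6% of log2 changes of 0.5 and 84.8% of changes of 1, and 5.99% of its calls were false. A gene that did not pass may therefore still have changed by such an amount. Alternatives were cyclic loess scaling, the mean over probe sets, leaving out genes below the median level, a trended and robust prior, only the arrays compared, a replicate block, each array left out, and 1 pair of arrays left out, the last chosen after seeing the data.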

Additional observations from a re-analysis of the deposited data

How the results depend on the processing

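None of the 26 calls changed direction, in 19 alternatives for 23 of them and in 18 for the other 3. Those 3 were Psmc3ip at 3 weeks and for the mean of times, and Psmg3, which are not tested when low genes are left out. Only loess scaling, the mean over probe sets and leaving out arrays of the comparison itself can alter a fitted difference. The other alternatives could not change a direction. For the count of proteasome genes that passed, PAC at 1 week (4) gave 0 with only the arrays compared and 0 without the second arrays of PAC 1 week and sham LV, an alternative chosen after seeing the data. PAC at 3 weeks (4) gave 2 under loess scaling. PAC at 6 weeks (6) gave 16 of 44 tested without genes below the median level (36.4%, against 24.4% of all genes), 14 with the trended and robust prior (28.6%, against 11.7%) and 3 with only the arrays compared. The mean of times (11) gave 5 under loess, 5 with only the arrays compared and 6 without the pair of arrays. Sham RV against sham LV (1) gave 5 of 44 without low genes (11.4%, against 8.74% of all genes), 5 with the trended prior (10.2%, against 3.63%), 0 with only the arrays compared and 0 without the pair. The cause was not tested. With only the arrays compared, 0.446% of all genes passed at 1 week, 5.12% at 6 weeks and 14.6% for the mean of times. Under loess scaling 2.68% of all genes passed at 3 weeks and 15.3% for the mean of times. The share of all genes that passed also depended on single arrays. With 1 array left out the counts ran from 0 to 7 at 1 week, 0 to 5 at 3 weeks, 0 to 8 at 6 weeks, 1 to 12 for the mean of times and 0 to 3 between the shams, and a lone array is then assumed to vary like the other groups. They were 0 at 1 week without sham RV array 2 and 1 without PAC array 2, 0 at 3 weeks without either sham RV or TAC array or PAC array 2, and 0 at 6 weeks without sham RV array 2 or PAC array 2. For the mean of times they were 1 without sham RV array 2, 5 without its array 1, 6 without PAC array 2 of 1 week, 4 without that of 3 or of 6 weeks and 7 without either TAC array. Psmd14 for the mean of times passed in 7 of 7 other alternatives and 12 of 12 with an array left out. The replicate block gave the same counts as the fit without it (4, 4, 6 and 11 for PAC, 1 between the shams), and 10 of the 11 genes for the mean of times were shared, with Psmg2 in place of Psmd1. The constitutive median at 3 weeks after PAC was −0.03 under loess (0.04 otherwise), and between the shams 0.02 (−0.03 otherwise).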
